A study of Rattus norvegicus with 12 samples.

Results

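The fibrillar and network collagens described here are 10 of the 18483 genes in the deposited tables, taken by gene symbol: Col1a1, Col1a2, Col3a1, Col5a1, Col5a2 and Col11a1 of the fibrils, Col6a1 and Col6a2 of the beaded filaments, and Col8a1 and Col8a2 of the short-chain network. All 10 passed the filter on low counts, which kept 13967 genes. RNA was sequenced from neonatal rat ventricular myocytes (NRVMs), heart muscle cells that the study isolated from newborn Sprague-Dawley rats and purified on Percoll before culture. The 12 samples form 4 groups of 3 biological replicates. The siNeg cultures received a control siRNA, the siNeg PE cultures received the control siRNA and phenylephrine (PE, an alpha-adrenergic agonist that makes the cells hypertrophic), the siSlc39a2 cultures received an siRNA against the zinc importer Slc39a2, and the siSlc39a2 PE cultures received that siRNA and PE. PE was given for 36 h by the sample labels, while the culture methods of the study give a longer time. Every culture was transfected, so no group shows untransfected cells, and the knockdown rests on 1 siRNA sequence, so that loss of Slc39a2 and any other effect of that siRNA cannot be told apart.

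Collagens are built from 3 chains wound into a triple helix. Collagen I, made of chains of Col1a1 and Col1a2, and collagen III, made of Col3a1 alone, are the bulk of the fibrils in the heart wall. Collagens V and XI are minor fibrillar types that start fibrils and limit their width, collagen VI forms filaments around cells, and collagen VIII forms open lattices known from the endothelial lining and from remodelling vessels and hearts. In the heart, fibroblasts are the main source of the fibrillar chains, so their transcripts in a myocyte culture also depend on the other cells present. In bulk RNA, fewer cells of a type and less RNA per cell cannot be told apart.

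The expected counts of a sample summed to at least 24065539 and at most 28603854. A gene at 3 counts, taken as the floor of detection, was at 0.102 to 0.118 CPM (counts scaled to the size of the library), and each of the 10 collagens was above that floor in every sample. Counts of Slc39a2 were 50, 50 and 59 for siNeg and 21, 11 and 2 for siSlc39a2, and with PE they were 95, 198 and 182 for siNeg PE and 31, 25 and 38 for siSlc39a2 PE. The groups transfected with siSlc39a2 did not overlap the control groups of the same treatment. The log2 fold change of Slc39a2 was -2.35 (standard error 0.46, edgeR adjusted p = 0.00098) without PE and -2.33 (standard error 0.38, edgeR adjusted p = 0.000224) with PE.

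Together, the 10 collagens took 1.81% ± 0.294 (SD, n = 3) of all counts in siNeg and 0.653% ± 0.0254 in siSlc39a2, and 1.22% ± 0.174 in siNeg PE and 0.479% ± 0.081 in siSlc39a2 PE. Reads that Col1a2 shared with another row are in the shares of the 10 only as far as they were counted for Col1a2. Col1a1 alone took 1.02% ± 0.166 of the counts in siNeg and 0.24% ± 0.0406 in siSlc39a2 PE. On the FPKM scale, which is per transcript length and so allows levels of different genes to be compared, the order in siNeg was Col1a1 (1779 ± 290.7), Col3a1 (717.2 ± 160.3), Col1a2 (375.7 ± 36.57), Col6a2 (252.4 ± 27.32), Col6a1 (192.8 ± 26.42), Col5a1 (118.2 ± 25.74), Col5a2 (37.54 ± 4.568), Col8a2 (6.073 ± 0.3868), Col8a1 (4.473 ± 0.2371) and Col11a1 (2.197 ± 0.5456). No neighbours in that order overlapped in siNeg. Col1a1, Col3a1 and Col1a2 led in every group as deposited. The place of Col1a2 depends on reads that were divided with another row (given with its values): with them added, Col1a2 was at 834.3 ± 98.35 FPKM in siNeg and its mean was above that of Col3a1 in all 4 groups, overlapping it in each. Col8a1 stood below Col8a2 in siNeg and above it in the other groups, and in siSlc39a2 PE Col5a1 (67.22 ± 5.627 FPKM) stood above both chains of collagen VI, overlapping Col6a2 (60.74 ± 8.976 FPKM).

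**Figure D1:**
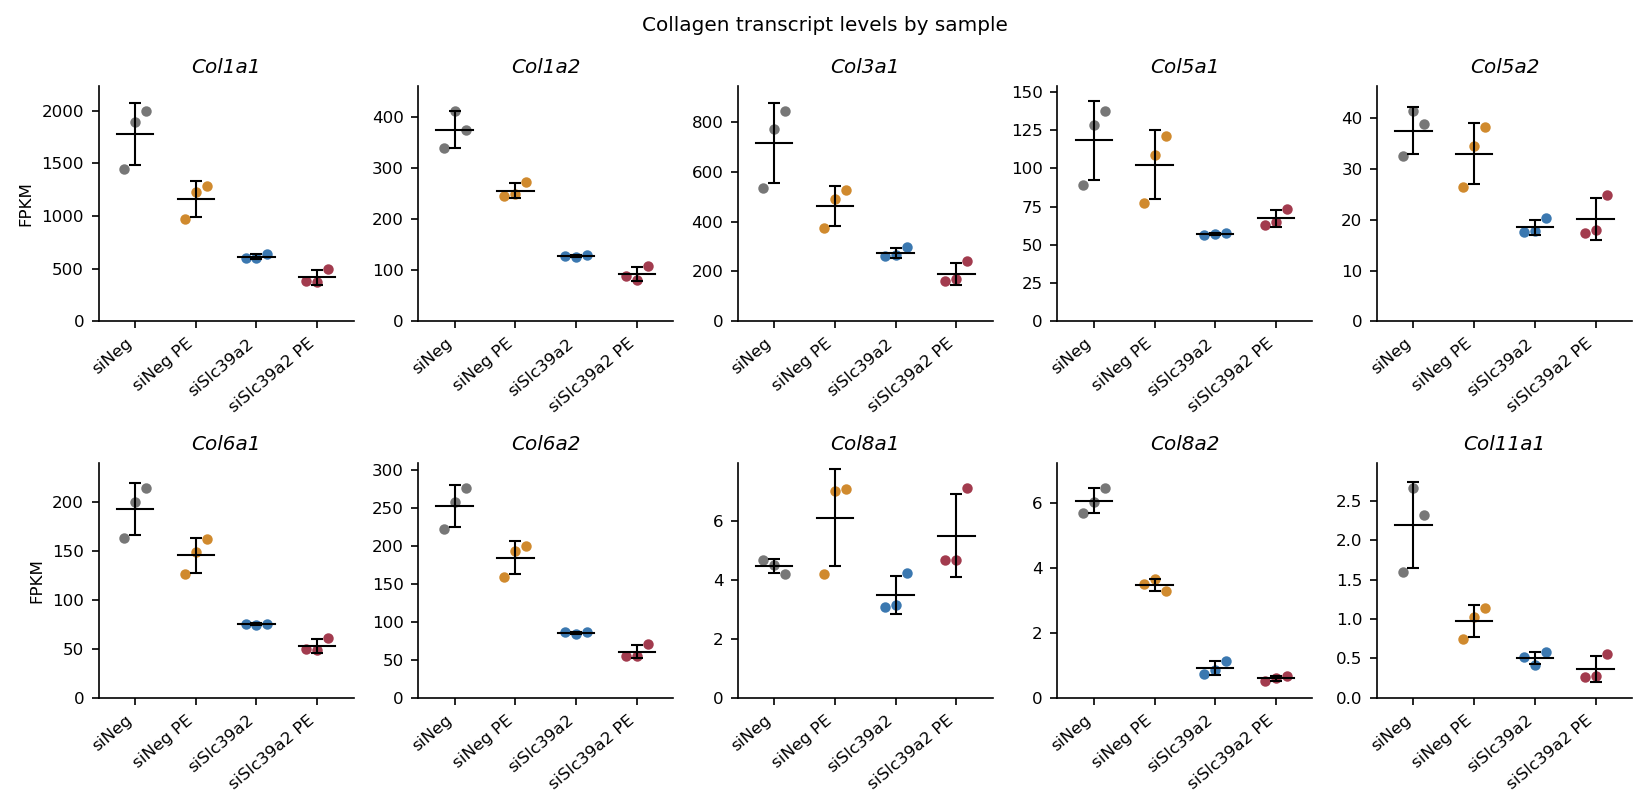
FPKM of each collagen (vertical axis, linear and starting at 0) in the 4 groups. Points are the 3 samples of a group in replicate order, the long line is their mean and the bars are 1 SD. In siSlc39a2 and siSlc39a2 PE the points of every collagen but Col8a1 lie below all points of siNeg and siNeg PE, for Col5a1 and Col5a2 by a narrow gap.

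Knockdown of Slc39a2 without PE was compared first, with siNeg as the control. A gene was called at an adjusted p below 0.05 from edgeR's quasi-likelihood test, with Benjamini-Hochberg adjustment over all 13967 genes. Of the 10 collagens, 9 fell and Col8a1 did not pass, while 26.4% of all genes tested were called lower and 22.8% higher. The same 9 were also past a log2 fold change of -1, against 5.21% of all genes. The median log2 fold change of the 10 was -1.60 and that of all genes was -0.02. Scaling to library size alone moved the median of all genes by 0.14 and the share of higher genes among those called from 46.4% to 64.9%, while the median of the 10 was -1.46. With PE, 9 of the 10 were again lower in siSlc39a2 PE than in siNeg PE (28.1% of all genes, with 29.2% higher) and 7 of them were past -1 (5.58% of all genes), with a median of -1.44 against 0.01 for all genes.

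Of the 10, the level was highest for Col1a1, the main chain of collagen I. Col1a1 (NCBI gene 29393) was at 1449, 1893 and 1995 FPKM in the siNeg samples and at 598, 598 and 638 in the siSlc39a2 samples. The highest siSlc39a2 sample was thus far below the lowest siNeg sample, and the 3 siSlc39a2 samples lay close together. Its log2 fold change was -1.68 (standard error 0.13, edgeR adjusted p = 4.91e-07), or 3.21-fold lower. With PE, Col1a1 was at 972, 1225 and 1289 FPKM in siNeg PE and at 379, 374 and 501 in siSlc39a2 PE, giving a log2 difference of -1.48 (standard error 0.13, edgeR adjusted p = 1.48e-06).

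Col1a2 (NCBI gene 84352), the partner chain of collagen I, was at 339, 412 and 376 FPKM in siNeg and at 129, 127 and 130 in siSlc39a2, again without overlap. It fell by 1.69 on the log2 scale (standard error 0.10, edgeR adjusted p = 2.17e-08) without PE. It fell by 1.47 (standard error 0.10, edgeR adjusted p = 8.42e-08) with PE, from 246.1, 249.4 and 273.1 FPKM to 89.7, 80.5 and 108. Col1a2 counts were not whole numbers, since the authors' counting divided its reads with a row named NEWGENE_621351. The counts of both rows added up to a whole number in 12 of 12 samples (within 0.005), and Col1a2 held 36.0% to 44.2% of the sum. Fitted as a sum, an alternative chosen after seeing the data, the log2 fold changes were -1.67 without PE and -1.41 with PE, so the direction and the call did not depend on how those reads were divided.

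Col3a1 (NCBI gene 84032), whose product forms collagen III, was at 537, 772 and 843 FPKM in siNeg and at 262, 264 and 297 in siSlc39a2. It fell 2.88-fold (log2 fold change -1.53, standard error 0.18, edgeR adjusted p = 1.47e-05). With PE it was at 374, 492 and 525 FPKM in siNeg PE and at 163, 168 and 243 in siSlc39a2 PE (log2 fold change -1.29, standard error 0.17, edgeR adjusted p = 5.37e-05). Neither comparison had overlapping groups, though replicate 1 was the lowest sample in both control groups and replicate 3 the highest in siSlc39a2 PE.

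The chains of the minor fibrillar collagens V and XI fell as well. Col5a1 (NCBI gene 85490) was at 88.9, 128 and 137 FPKM in siNeg and at 56.7, 56.9 and 57.6 in siSlc39a2 (log2 fold change -1.17, standard error 0.15, edgeR adjusted p = 3.62e-05). Col5a2 (NCBI gene 85250) was at 32.5, 41.4 and 38.8 FPKM in siNeg and at 17.6, 17.7 and 20.3 in siSlc39a2 (log2 fold change -1.18, standard error 0.15, edgeR adjusted p = 3.33e-05). Both chains of collagen V therefore changed by nearly the same amount without PE. With PE the differences were -0.60 for Col5a1 (standard error 0.15, edgeR adjusted p = 0.00414) and -0.74 for Col5a2 (standard error 0.15, edgeR adjusted p = 0.00101), and these were the called collagens that did not reach -1. Col5a1 was at 77.3, 108 and 121 FPKM in siNeg PE and at 63.2, 64.8 and 73.7 in siSlc39a2 PE, so that the groups were separated by a narrow gap.

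Col11a1 (NCBI gene 25654), a chain of collagen XI that is abundant in cartilage, had the lowest mean FPKM of the 10 in every group. In siSlc39a2 PE it overlapped Col8a2. The siNeg samples held 330, 553 and 456 counts of it (1.60, 2.67 and 2.32 FPKM), and the siSlc39a2 samples 102, 90 and 104 (0.52, 0.42 and 0.58 FPKM). Its log2 fold change was -2.29 (standard error 0.26, edgeR adjusted p = 1.19e-05), a difference of 4.9-fold. With PE it reached 157, 217 and 234 counts in siNeg PE and 54, 61 and 113 in siSlc39a2 PE, and the log2 difference was -1.42 (standard error 0.27, edgeR adjusted p = 0.000619). The third siSlc39a2 PE sample was the nearest to the siNeg PE samples.

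Collagen VI chains fell like those of collagen I. Col6a1 (NCBI gene 294337) was at 164, 200 and 215 FPKM in siNeg and at 75.9, 74.5 and 75.9 in siSlc39a2 (log2 fold change -1.50, standard error 0.11, edgeR adjusted p = 2.12e-07). Col6a2 (NCBI gene 361821) was at 223, 258 and 276 FPKM in siNeg and at 86.3, 84.3 and 86.2 in siSlc39a2 (log2 fold change -1.70, standard error 0.11, edgeR adjusted p = 4.11e-08). The siSlc39a2 samples of both genes differed from each other by far less than the siNeg samples did. With PE the log2 fold changes were -1.46 and -1.61 (standard error 0.11 for both, edgeR adjusted p = 2.79e-07 and 7.46e-08). The genes are neighbours in the rat genome with no protein-coding gene between them, as are Col3a1 and Col5a2.

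The chains of collagen VIII parted from each other. Col8a2 (NCBI gene 313592) had the largest change of the 10, from counts of 651, 693 and 712 in siNeg to counts of 85, 103 and 114 in siSlc39a2. In FPKM this was 5.71, 6.03 and 6.48 against 0.73, 0.87 and 1.14, and the log2 fold change of -2.88 (standard error 0.13, edgeR adjusted p = 2.18e-09) was a 7.38-fold difference. With PE its counts were 403, 429 and 372 in siNeg PE and 59, 71 and 77 in siSlc39a2 PE, or 5.84-fold lower (log2 fold change -2.55, standard error 0.14, edgeR adjusted p = 1.3e-08).

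Counts of Col8a1 (NCBI gene 304021) were 573, 657 and 546 in siNeg against 415, 427 and 496 in siSlc39a2. The samples did not overlap in CPM (21.5 to 24.9 against 14.4 to 19.3), while in FPKM the highest siSlc39a2 sample (4.25) was just above the lowest siNeg sample (4.22). The log2 fold change was -0.52 (standard error 0.21, 95% interval -0.97 to -0.08), and the adjusted p of 0.0509 from edgeR missed the threshold. It passed under 7 of 15 other settings, among them DESeq2 (adjusted p = 0.0316), the range over the settings being 0.00857 to 0.161. With PE, its counts were 635, 994 and 975 in siNeg PE against 673, 711 and 1104 in siSlc39a2 PE. These groups overlapped, and the difference of -0.07 had a 95% interval of -0.50 to 0.36 (edgeR adjusted p = 0.784).

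**Figure D2:**
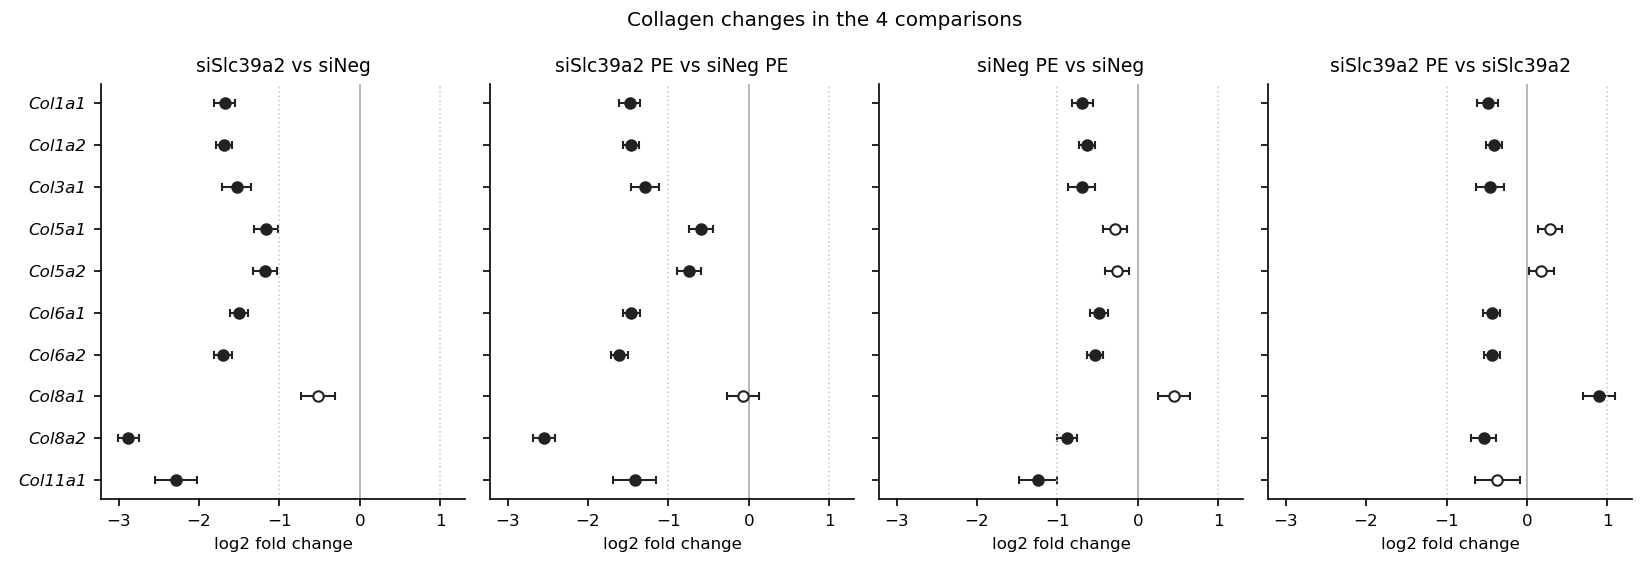
Log2 fold change of each collagen (horizontal axis) in the 4 comparisons, with bars of 1 standard error from edgeR. Filled points are at an adjusted p below 0.05, and dotted lines mark -1 and 1. In the knockdown comparisons Col8a2 lies farthest to the left and Col8a1 nearest to 0, and in siSlc39a2 PE against siSlc39a2 Col8a1 is the filled point to the right of 0.

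The response to PE was compared next, in cells with the control siRNA. It shares the siNeg samples with the first knockdown comparison. In siNeg PE against siNeg, 7 of the 10 collagens fell (25.7% of all genes were called lower and 24.0% higher) and 1 of them, Col11a1, was past -1 (2.80% of all genes). The median log2 fold change of the 10 was -0.58 and that of all genes was -0.01. The 3 that did not pass were Col5a1 (-0.28, edgeR adjusted p = 0.132), Col5a2 (-0.26, edgeR adjusted p = 0.158) and Col8a1 (0.45, 95% interval 0.01 to 0.88, edgeR adjusted p = 0.081), and in these the groups overlapped.

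Col11a1 had the largest PE difference, with 13.0, 21.0 and 18.0 CPM in siNeg and 5.79, 7.63 and 8.59 in siNeg PE (log2 fold change -1.24, standard error 0.24, edgeR adjusted p = 0.00133). Col8a2 followed, at 25.7, 26.3 and 28.1 CPM in siNeg and 14.9, 15.1 and 13.7 in siNeg PE (log2 fold change -0.88, standard error 0.12, edgeR adjusted p = 0.000108). In both, every siNeg PE sample lay below every siNeg sample. Col1a1 (-0.69), Col1a2 (-0.63) and Col3a1 (-0.70) fell by similar amounts, with edgeR adjusted p of 0.00112, 0.000255 and 0.00535, as did Col6a1 (-0.48, edgeR adjusted p = 0.00313) and Col6a2 (-0.53, edgeR adjusted p = 0.0013). The count of 7 was not the same with every tool and setting: limma on log2(FPKM + 1) after quantile normalization called 3 of the 10, with Col1a1, Col3a1, Col6a1 and Col6a2 at adjusted p of 0.0652, 0.0516, 0.0808 and 0.069. With replicate number as a block in the edgeR fit, all 10 were called, with Col5a1, Col5a2 and Col8a1 at adjusted p of 0.0304, 0.026 and 0.0338. The shares of all genes called, 25.7% lower and 24.0% higher, are of the main fit and cannot be set beside these counts. For the 9 collagens called under knockdown, the PE value was smaller in size than the knockdown value without PE. For Col8a1 the values were 0.45 and -0.52, and without siNeg PE replicate 1 the PE value was 0.62. The difference between these effects was not tested.

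In siSlc39a2 PE against siSlc39a2, 6 collagens fell (29.3% of all genes were called lower) and Col8a1 rose (30.7% were called higher). The median was -0.42 against 0.01 for all genes. Col8a1 was at 14.4, 14.5 and 19.3 CPM in siSlc39a2 and at 25.1, 24.5 and 40.1 in siSlc39a2 PE (log2 fold change 0.90, standard error 0.20, edgeR adjusted p = 0.00229), so that every PE sample was above every sample without PE. Without siSlc39a2 PE replicate 3, the highest of them, Col8a1 still rose, by 0.63. Col8a2 fell in the same samples, from 2.94, 3.49 and 4.45 CPM to 2.20, 2.45 and 2.80 (log2 fold change -0.54, standard error 0.15, edgeR adjusted p = 0.0077).

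Col1a1 (-0.49), Col1a2 (-0.41), Col6a1 (-0.44) and Col6a2 (-0.44) fell as well, with edgeR adjusted p between 0.00296 and 0.00616. Col3a1 fell by 0.46 (edgeR adjusted p = 0.0333), a call that did not hold when any of 5 single samples was left out (adjusted p 0.0578 to 0.122). Col11a1 (-0.37, edgeR adjusted p = 0.27) did not pass, and its groups overlapped through siSlc39a2 PE replicate 3. Without that sample its difference was -0.78 (edgeR adjusted p = 0.0201). Col5a1 (0.29, edgeR adjusted p = 0.102) and Col5a2 (0.18, edgeR adjusted p = 0.305) did not pass, and both values were above 0.

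Whether the knockdown difference itself changed with PE was tested as an interaction, the difference with PE less that without. edgeR called 0 of the 10 collagens, with 3.61% of all genes called in either direction, and DESeq2 called 0. At an unadjusted threshold of 0.05 in edgeR there were 2, Col5a1 (0.57, adjusted p = 0.187) and Col11a1 (0.87, adjusted p = 0.264). All 10 values were above 0, from 0.04 for Col6a1 to 0.87 for Col11a1, with a median of 0.29 against 0.03 for all genes. Scaling to library size alone moved the median of all genes by -0.13 and turned the signs of Col6a1 (-0.09) and Col6a2 (-0.04), and the 95% intervals of 8 collagens included 0. Without siNeg replicate 1, the interaction of Col5a1 passed (0.72, edgeR adjusted p = 0.0427).

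Collagens I and VI are assembled from different chains, while collagens V and VIII occur in more than one chain composition. The ratio of the FPKM of both chains was taken in each sample. Col1a1 to Col1a2 was 4.72 ± 0.533 in siNeg and 4.76 ± 0.146 in siSlc39a2, and with PE 4.53 ± 0.508 in siNeg PE and 4.5 ± 0.234 in siSlc39a2 PE, and the groups overlapped in all 4 comparisons. With the reads of NEWGENE_621351 added to Col1a2, the ratios were 2.12 ± 0.113 in siNeg and 2.12 ± 0.0271 in siSlc39a2, and with PE 1.98 ± 0.0608 in siNeg PE and 1.91 ± 0.0543 in siSlc39a2 PE. The siSlc39a2 samples (2.09 to 2.14) then lay above the siSlc39a2 PE samples (1.85 to 1.95), and the other comparisons overlapped. Col5a1 to Col5a2 was between 2.74 and 3.62 in the 12 samples, and the groups overlapped. Col6a1 to Col6a2 was 0.734, 0.775 and 0.777 in siNeg and 0.794, 0.771 and 0.809 in siNeg PE, against 0.879, 0.884 and 0.881 in siSlc39a2 and 0.892, 0.884 and 0.868 in siSlc39a2 PE, so that every knockdown sample was above every control sample, by 0.21 and 0.16 on the log2 scale on average without and with PE.

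Col8a1 to Col8a2 was 0.821, 0.748 and 0.651 in the siNeg samples, 1.20, 1.92 and 2.16 in siNeg PE, 4.25, 3.61 and 3.73 in the siSlc39a2 samples, and 8.85, 7.83 and 10.5 in siSlc39a2 PE. The 4 groups did not overlap and stood in that order. The log2 ratio differed by 2.39 between siSlc39a2 and siNeg and by 2.40 with PE, and by 1.21 and 1.22 for PE without and with knockdown. With 3 samples against 3, the two-sided exact permutation test cannot go below p = 0.1, which these 4 differences and the 2 of collagen VI reached (adjusted p = 0.267 over the 16 ratios tested).

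**Figure D3:**
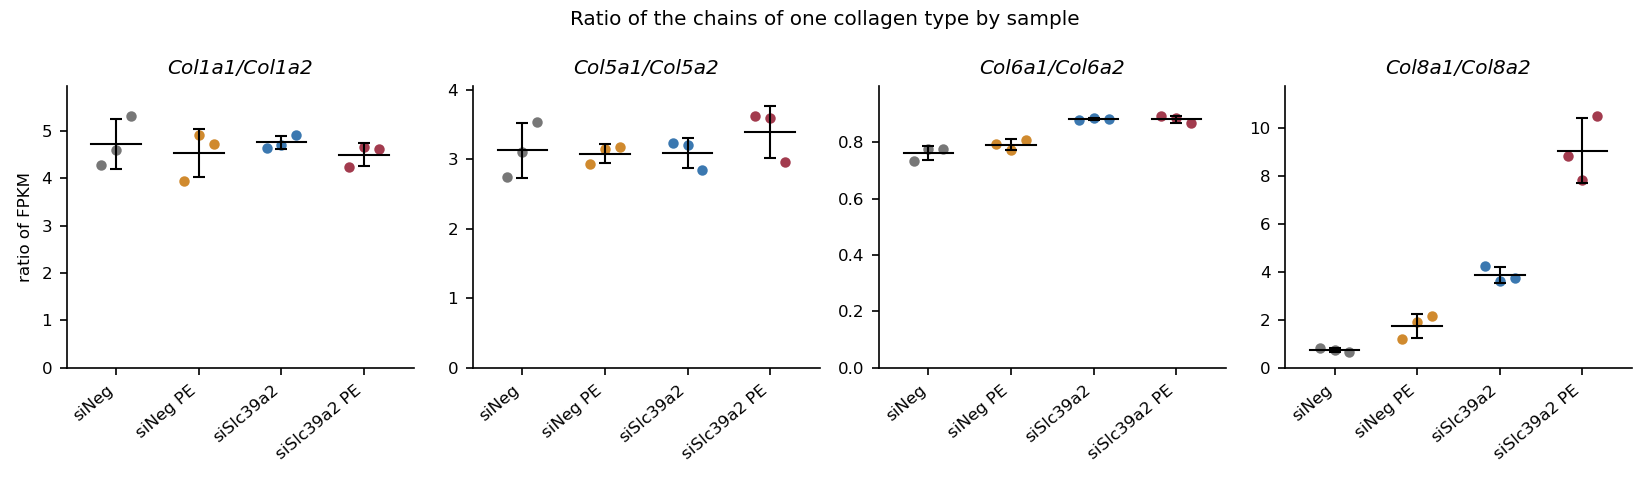
Ratio of the FPKM of both chains of a collagen type (vertical axis, linear and starting at 0) in each sample of the 4 groups. Points are samples, the long line is the mean and the bars are 1 SD. The Col8a1 to Col8a2 ratio is under 1 in siNeg and from 7.83 to 10.5 in siSlc39a2 PE, while the ratios of collagens I and V stay in one range.

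The stretches of 250 bases upstream of the start of Col8a1 and Col8a2 are shown because these chains of one collagen differed most in their changes. They are RefSeq sequences of the GRCr8 assembly, 5′ to 3′ on the plus strand, at chr11:56246532-56246781 for Col8a1 and chr5:143870519-143870768 for Col8a2. Capitals mark the GC box, searched as GGGCGG on both strands with overlaps allowed.
Col8a1: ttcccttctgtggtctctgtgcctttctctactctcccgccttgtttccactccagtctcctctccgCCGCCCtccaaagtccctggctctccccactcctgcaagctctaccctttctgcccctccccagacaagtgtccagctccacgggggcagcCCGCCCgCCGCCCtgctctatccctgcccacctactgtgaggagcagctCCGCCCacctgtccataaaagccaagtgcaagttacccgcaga
Col8a2: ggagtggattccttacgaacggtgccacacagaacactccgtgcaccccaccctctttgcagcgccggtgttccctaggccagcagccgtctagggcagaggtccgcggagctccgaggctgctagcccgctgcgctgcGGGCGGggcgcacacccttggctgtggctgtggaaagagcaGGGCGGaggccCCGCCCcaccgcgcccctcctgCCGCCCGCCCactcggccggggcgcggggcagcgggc
The Col8a1 stretch holds 4 matches and the Col8a2 stretch 5, and 33.1% of the 33469 promoters in the table, each a window of 300 bases, hold at least 1. A CCAAT box (CCAAT, in 37.5% of promoters) or a TATA box (TATAAA, in 14.2%) was found in neither window of 300 bases. Of the other 5 collagens in the table, Col11a1 had 3 GC boxes, Col5a1 had 1, and Col1a2, Col5a2 and Col6a1 had 0. A match of letters is a description and not a bound site.

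Leaving out the 10 collagens themselves, the genes whose centred log2 CPM over the 12 samples lay closest to the median profile of the 10 were NEWGENE_621351 (root mean square difference 0.078), Lrrc17 (0.116), Angptl2 (0.117), Antxr1 (0.12) and Cmklr1 (0.123). NEWGENE_621351 shares its reads with Col1a2, which is part of that profile. The other 4 had log2 fold changes of -1.39 (Lrrc17), -1.44 (Angptl2), -1.57 (Antxr1) and -1.67 (Cmklr1) without PE. Col1a1 (0.067), Col6a1 (0.083), Col3a1 (0.088), Col6a2 (0.109) and Col1a2 (0.112) were near the median profile, which their own values helped to set. Col11a1 (0.317), Col5a2 (0.364), Col5a1 (0.428), Col8a2 (0.634) and Col8a1 (0.847) were farther from it, and Col8a1 ranked 6741 of all genes.

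The other collagen chains of the rat were followed as a list of 33, of which 26 were tested. Without PE, knockdown lowered 14 and raised 1, with a median of -1.07, where 26.4% of all genes were called lower and 22.8% higher. Col6a3, the further chain of the main collagen VI, was at 457.8 ± 84.78 CPM in siNeg and 87.08 ± 3.33 in siSlc39a2 (log2 fold change -2.39, edgeR adjusted p = 1.16e-07). Col15a1, of basement membrane zones, fell by 2.50 (its counts were not whole and so are uncertain), and Col16a1, a fibril-associated chain, fell by 2.0 on the same scale. Col22a1, a chain of muscle-tendon junctions, was the 1 that rose (1.92, edgeR adjusted p = 1.45e-05), and it is named after its value was seen. Under knockdown with PE, 18 of these 26 were lower and 1 was higher, where 28.1% of all genes were called lower and 29.2% higher. In siNeg PE against siNeg, 2 of these 26 fell and 5 rose. Against the shares over all genes, the 5 that rose with PE were near the 24.0% called higher and the 2 that fell were under the 25.7% called lower.

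Genes that handle collagen protein were mixed. Of 21 genes of modification and folding in the endoplasmic reticulum, knockdown without PE lowered 14 and raised 3 (median -0.45). Over all genes, 26.4% were called lower and 22.8% higher. Fkbp10, a prolyl isomerase of procollagen, fell by 1.56 from 191.1 ± 9.674 CPM, while Serpinh1, the collagen chaperone HSP47, was at 2355 ± 25.76 CPM in siNeg and 2209 ± 102 in siSlc39a2 and did not pass (-0.09, edgeR adjusted p = 0.175). P3h3 (-1.14) and P3h4 (-1.10), both of the prolyl hydroxylase family, were the next lowest, and Tmem38b (0.76), P3h2 (0.48) and Pdia3 (0.32) rose. The counts of P3h3, P3h2 and Pdia3 were not whole. Of 11 tested genes of procollagen export and processing, 6 fell and 5 did not pass (median -0.38, highest value -0.01), with Adamts2 (-2.11) and Adamts3 (-1.23), which remove the amino-terminal propeptide, and Pcolce (-1.25), which enhances removal of the carboxy-terminal one, as the lowest.

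Of 18 tested genes for crosslinking or binding fibrils, 16 fell and 1 rose (median -1.12), where 26.4% of all genes were called lower and 22.8% higher. Dpt (-2.04), Aebp1 (-1.86) and Bgn (-1.75, counts not whole), which bind collagen fibrils, were the lowest, and Loxl4 (0.93), a lysyl oxidase, rose. Of 9 tested genes for collagen receptors and uptake, 4 fell and 5 did not pass (median -0.04, highest value 0.24). They were Fap, a protease whose counts were 14 to 29 in siNeg against 1 to 6 in siSlc39a2 (fitted value -2.64, which depends on the prior count at so few reads), Itga11 (-2.0), an integrin chain that binds collagen, Ctsk (-1.24), a collagen-degrading protease, and Mrc2 (-0.88), an endocytic collagen receptor. Fap is named outside the rule on expression level. With PE, where 28.1% of all genes were called lower and 29.2% higher, the counts of lower and higher genes under knockdown were 12 and 5 for modification, 6 and 0 for export, 14 and 1 for crosslinking, and 4 and 2 for receptors.

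**Figure D4:**
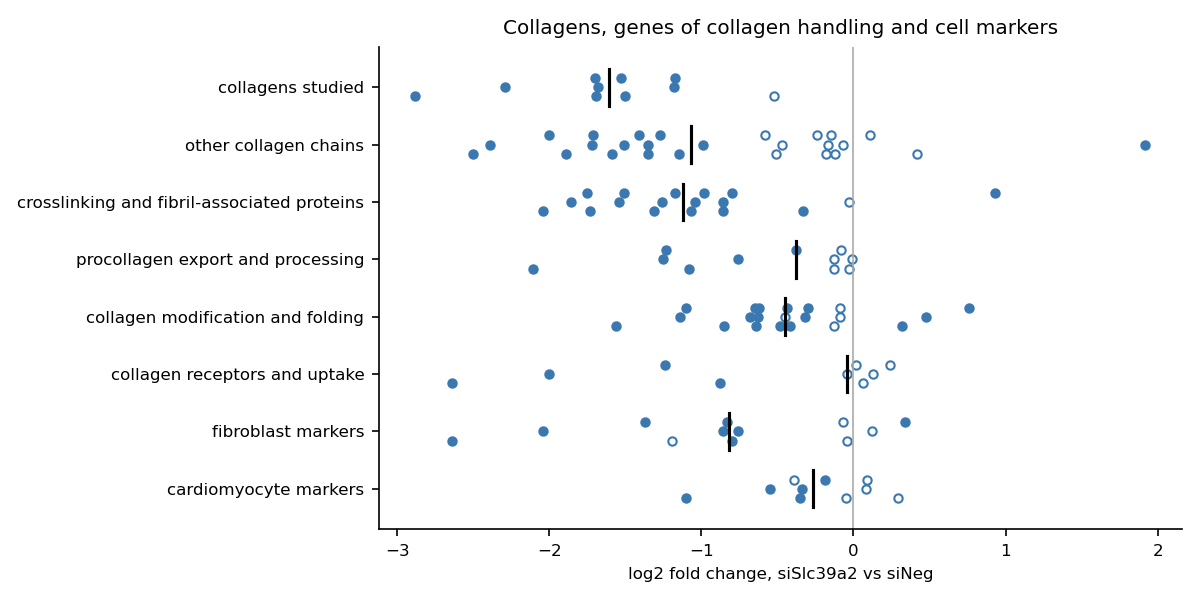
Log2 fold change (horizontal axis) of the 10 collagens, of the lists of genes of collagen handling and of fibroblast and cardiomyocyte markers in siSlc39a2 against siNeg. Each point is a gene, filled at an edgeR adjusted p below 0.05, and the black line is the median of the list. The medians are -1.60 for the 10 collagens, -1.07 for the other chains and -0.82 for the fibroblast markers.

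Markers of cells that could accompany the myocytes moved with the collagens in part, and their part in the result was not tested. The myocyte markers were abundant, led by Myh7, with a sum over 10 genes of 49720 to 50670 CPM in siNeg and 39190 to 40360 in siSlc39a2, and of 46740 to 50660 in siNeg PE and 41490 to 43010 in siSlc39a2 PE. Without PE, 5 of these 10 fell under knockdown and 5 did not pass, with a median of -0.26. Over all genes, 26.4% were called lower and 22.8% higher. Myh6 fell most, from 15860 ± 1902 to 7407 ± 501.3 CPM, while Myh7 (-0.05, edgeR adjusted p = 0.564) did not pass. With PE, 4 myocyte markers were lower under knockdown and 6 did not pass. The sum over 12 fibroblast markers, led by Vim, was 2957 to 2996 CPM in siNeg and 1914 to 2031 in siSlc39a2, and 2694 to 2873 in siNeg PE and 2134 to 2238 in siSlc39a2 PE. Most of this sum was Vim and S100a4. Vim was at 1835 ± 107.2 CPM in siNeg and 1033 ± 56.39 in siSlc39a2, and S100a4 at 666.1 ± 107 and 634.5 ± 25.94. Without PE, 7 of these 12 fell under knockdown, 1 (Tcf21, 0.34) rose and 4 did not pass, with a median of -0.82. Those that fell were Fap, Dpt (-2.04), Thy1 (-1.37), Lum (-0.86), Vim (-0.83), Dcn (-0.80) and Gsn (-0.76), and those that did not pass were Mfap5 (-1.19), S100a4 (-0.07), Ddr2 (-0.04) and Pdgfra (0.12). In siNeg PE against siNeg, 5 fibroblast markers fell and 2 rose, where 25.7% of all genes were called lower and 24.0% higher. Under knockdown with PE 7 fell and 1 rose, where 28.1% of all genes were called lower and 29.2% higher. Dpt, Dcn, Lum, Fap and Ddr2 stand in the lists of collagen handling as well, so these lists are not independent of the fibroblast markers.

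The sum over 8 smooth muscle and pericyte markers, most of it Des, which myocytes express too, was 5251 to 5880 CPM in siNeg and 3590 to 4091 in siSlc39a2, and 7 of the 8 fell. With PE the sums overlapped (5845 to 6244 in siNeg PE and 5419 to 6102 in siSlc39a2 PE), and 3 were lower and 1 was higher. The shares of all genes called lower were 26.4% without PE and 28.1% with PE, and 29.2% were called higher with PE. Mesothelial markers summed to 17.2 to 23.5 CPM in siNeg and 6.06 to 9.40 in siSlc39a2, macrophage markers to 22.1 to 26.2 and 17.0 to 18.4, and endothelial markers to 20.8 to 24.4 and 18.4 to 20.4. In siNeg PE these sums were 21.7 to 27.0 for mesothelial, 14.5 to 15.6 for macrophage and 18.3 to 25.9 for endothelial markers, and in siSlc39a2 PE they were 8.56 to 10.4, 11.6 to 13.2 and 18.7 to 22.5. Upk1b, Cd68 and Tek had the highest mean CPM over all samples in the mesothelial, macrophage and endothelial lists. No marker was at 0 in every sample.

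Single samples stood at the edge of their group for most of the 10 collagens. In CPM, siNeg replicate 1 was the lowest of its group for 9 of the 10, siNeg PE replicate 1 for 8, and siSlc39a2 PE replicate 3 was the highest for 10. The counts of collagens called in the knockdown comparisons were 9 to 10 without PE and 9 with PE when any 1 sample was left out. Col5a1 in PE alone passed without siNeg replicate 1 (-0.43, edgeR adjusted p = 0.0225), and Col8a1 in PE alone passed without siNeg PE replicate 1 (0.62, edgeR adjusted p = 0.0205).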

How the data were processed

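RNA of 12 NRVM cultures (4 groups of 3) was sequenced at BGI. The submitters' processing notes name HISAT, Bowtie2 and the build Rnor_6.0. The authors deposited expected counts per gene, in which reads matching several genes are divided among them (78.7% of values were whole), and FPKM of the same genes. The paper names normalizeBetweenArrays and limma for its own comparisons.

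Expected counts were rounded, filtered by filterByExpr of edgeR 4.0.16 (R 4.3.3; 4516 genes left out), TMM-normalized and fitted in one model of 4 groups (8 residual degrees of freedom). Standard errors and 95% intervals come from the quasi-likelihood F-test. CPM are counts scaled to the TMM-normalized library size. Ratios of chains used the deposited FPKM. DESeq2 1.42.0 and limma 3.58.1 were alternatives. The intervals rest on the spread between replicates in that fit. The floors come from single samples and carry no spread between replicates.

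The 10 collagens and the gene lists were chosen with earlier results of these data known. Named genes are the 10, Slc39a2, from each list of collagen handling up to 3 highest and 3 lowest called genes with a mean log2 CPM above 1, the top gene of each marker list, and the 5 genes outside the 10 of most similar profile. Col22a1, Fap, Serpinh1, Myh6 and the fibroblast markers other than Vim were named after their values were seen. Replicate numbers were not used to pair the samples in the main fit. Same-numbered samples deviated together in some pairs and not in others, with correlations of -0.09 to 0.32 over the comparisons. No sample was a copy of another (chi-square over its degrees of freedom between replicates 4.7 to 34.2). Promoters were matched by gene ID for 7 of 10.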

Additional observations from a re-analysis of the deposited data

Results flagged for a closer look

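None of the 10 collagens had a knockdown difference that changed with PE past the threshold, but 7 of the 85 tested genes of collagen handling and other chains did, against 3.61% of all genes (edgeR interaction test, siSlc39a2 PE against siNeg PE less siSlc39a2 against siNeg). All 7 values were above 0, and they are given from the main fit alone. Scaling to library size alone moved the median interaction of all genes by -0.13. It moved the share above 0 among all genes called from 47.8% to 16.9%. The basement membrane chains Col4a1 and Col4a2 were among the 7, while Col4a3, Col4a4, Col4a5 and Col4a6 did not pass. Col4a1 was at 2348 ± 192.6 CPM in siNeg and 918.3 ± 27.52 in siSlc39a2, and with PE at 2599 ± 307 in siNeg PE and 1664 ± 35.48 in siSlc39a2 PE (n = 3 each), and its interaction was 0.71 (edgeR adjusted p = 0.00512). Col4a2 was at 2208 ± 143.3, 833.3 ± 26.75, 2521 ± 216.4 and 1453 ± 23.62 CPM in the same order, with an interaction of 0.61 (edgeR adjusted p = 0.00462). Both fell less under knockdown when PE was present.

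Among genes of modification and folding, the interaction was 0.57 for P4ha2 (edgeR adjusted p = 0.0481), 0.87 for P4ha3 (0.0171), 1.03 for P3h2 (0.0093) and 0.40 for Serpinh1 (0.0115). P4ha2 and P4ha3, subunits of prolyl 4-hydroxylase, fell by 0.85 and 0.62 under knockdown without PE and differed by -0.28 and 0.25 with PE, where P4ha3 did not pass (edgeR adjusted p = 0.108). P3h2, a prolyl 3-hydroxylase, rose from 12.84 ± 1.087 CPM in siSlc39a2 to 53.23 ± 1.184 in siSlc39a2 PE. Serpinh1 rose by 0.31 under knockdown with PE, and its difference without PE (-0.09) did not pass. Itgb1, the integrin beta chain of the collagen receptors, was at 353.6 ± 43.06, 387.4 ± 60.12, 591.8 ± 80.96 and 1275 ± 262 CPM in the order of groups above, with an interaction of 0.98 (edgeR adjusted p = 0.0266). The counts of Col4a1, Col4a2, P3h2 and Itgb1 were not whole, so their values depend on how shared reads were divided.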

How the results depend on the processing

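Of the alternatives for single collagens, 746 kept their direction and side of the threshold, 20 passed it newly, 19 lost it and 20 turned the sign. Under knockdown without and with PE, the 9 called collagens kept their calls under every setting run. The cause of the changes below was not tested. The shares of all genes called lower or higher that are given above are of the main fit, not of these settings. In siNeg PE against siNeg, limma on log2(FPKM + 1) and on log2(FPKM + 0.1) called 3 collagens in place of 7, and the first put 0 past both thresholds in place of 1. Leaving out 1 sample gave 0 to 1 past both thresholds for siSlc39a2 PE against siSlc39a2 (in place of 0), 1 being Col8a1 without siSlc39a2 replicate 3 or siSlc39a2 PE replicate 2, and 0 to 1 called interactions, 1 being Col5a1 without siNeg replicate 1. limma on log2(FPKM + 1) called 2 interactions, Col8a2 (0.56) and Col11a1 (0.71). Same-numbered samples did not deviate together in every pair. Their correlations were -0.011 to 0.025 for knockdown without PE and 0.004 to 0.32 with PE. For PE they were 0.053 to 0.315 with the control siRNA and -0.09 to 0.221 after knockdown. Samples of different number were at -0.03 to 0.022, -0.226 to 0.118, -0.249 to 0.089 and -0.249 to 0.236 in that order. With the replicate block, 10 collagens were called for PE in place of 7 and 1 interaction, Col5a1 (0.57, adjusted p = 0.0317), in place of 0; Col8a1 under knockdown (-0.54) and Col5a1 for PE after knockdown (0.29) also passed, and it changed no other call of a collagen. Signs turned when 1 sample was left out for Col8a1 under knockdown with PE (-0.34 to 0.06, with 0.02 and 0.04 between) and Col5a2 for PE after knockdown (0 to 0.26). Interactions turned to -0.30 for Col1a1 and -0.14 for Col3a1 (limma, log2(count + 1)). That of Col6a1 turned to -0.09 by library size, 0 with no filter, -0.08, -0.09 and -0.07 by limma, and leaving out a sample gave -0.08 to 0.13, with -0.04 between. That of Col6a2 turned to -0.04 by library size, -0.05, -0.06 and -0.03 by limma, and leaving out a sample gave -0.04 to 0.16. Between 5 and 9 chain ratios reached the smallest p. Slc39a2 was at -3.12 to -1.12 and -2.59 to -1.55 and called throughout. Standard errors were largest for Col11a1 and Col8a1 (0.26 and 0.21 under knockdown without PE).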
